A study of Mus musculus with 8 samples.

Results

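The genes described here encode subunits of oxidative phosphorylation, the 5 protein complexes of the inner mitochondrial membrane that use electrons from nutrients to make ATP. They were chosen by a rule on gene symbols: Nduf followed by a, b, c, s or v and a number, Sdha to Sdhd, Uqcr, Cox4 to Cox8, and Atp5. The choice was made with earlier results of these data known. Array probe sets with a single gene symbol were used, 1 per gene, the set with the highest mean over all arrays. This gave 81 of the 18193 named genes of the series, of which 76 were bright enough to be tested among 12091 genes. Complex I had 33 of the genes (32 tested), complex II 4 (4 tested), complex III 8 (8 tested), complex IV 19 (15 tested) and complex V, the ATP synthase, 17 (17 tested). Ndufa4 was counted with complex IV, where its protein is found although its name places it in complex I, and its paralog Ndufa4l2 was counted with it. Cox7a2l encodes a factor that joins complexes III and IV rather than a structural subunit, and without it the counts for db-cAMP in WT cells below become 13 higher and 1 lower of 75, with the counts of the other comparisons on the deposited values unaltered.

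RNA was measured on 8 Affymetrix arrays of CD4+ T cells from the spleens of mice 8 weeks old. The mice were IFN-gR1-deficient (KO, lacking a chain of the interferon-gamma receptor) or wild type (WT). All cells were activated through CD3 and CD28 for 15 h, and db-cAMP, a form of the second messenger cyclic AMP that enters cells, or vehicle (medium) was present for the last 3 h. The 4 groups of 2 arrays each were therefore KO with db-cAMP, KO with vehicle, WT with db-cAMP and WT with vehicle, and no unactivated cells were among them. The titles call the 2 arrays of a group biological replicates but do not say whether they came from separate mice, so the p-values measure the spread between these arrays only. The free-text description of each KO array calls the cells WT, whereas the title, source name and genotype of the same array say KO, and these were followed.

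Complex I (NADH dehydrogenase) and complex II (succinate dehydrogenase, also an enzyme of the tricarboxylic acid cycle) pass electrons to coenzyme Q. Complex III hands them to cytochrome c and complex IV to oxygen, while complexes I, III and IV pump the protons that drive ATP synthesis by complex V. Resting T cells rely largely on this pathway, and activated T cells make more mitochondria while they also switch to glycolysis. Apart from complex II, the complexes also hold subunits encoded in mitochondrial DNA, which the symbol rule does not cover. Some nuclear subunit genes are missing too. Cyc1 of complex III does not match the rule and is counted below with the electron carriers. Ndufa11 and Ndufs6 match it but stood only on sets with several symbols.

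T cell markers were bright and those of other blood cells dim: 7 T cell genes summed to signals of 68972 to 78571 per array, against 351 to 648 for 5 B cell genes, 368 to 489 for 7 macrophage and neutrophil genes and 444 to 1028 for 3 NK cell genes. Cd4 itself gave only 252.9 to 539.1 and the 2 CD8 genes summed to 270 to 516, so these sets did not tell CD4+ from CD8+ T cells. Cd8b1 was lower in KO cells, by log2 differences of -0.92 under vehicle and -0.89 under db-cAMP (adjusted p = 0.0121 and 0.00514). Klrd1, an NK cell marker, was higher with db-cAMP by 1.18 in KO cells (adjusted p = 0.000258) and 0.83 in WT cells (adjusted p = 0.000719), and the 3 NK genes summed to 1024 and 1028 in KO cells with db-cAMP, against 596 and 444 with vehicle, and to 875 and 900 in WT cells with db-cAMP, against 574 and 447 with vehicle. Ifngr1, the targeted gene, gave 1056 and 1272 in KO cells with db-cAMP, 439 and 378 in KO cells with vehicle, 7319 and 8201 in WT cells with db-cAMP, and 905 and 873 in WT cells with vehicle. It was below WT under each treatment but not absent, and where its probes lie in the disrupted gene was not examined. Values are signal intensities scaled by the authors so that every array has the same trimmed mean, which means that a change in total mRNA per cell was not measured. Spiked-in polyA controls averaged 3755 to 5294 on KO arrays and 1270 to 1853 on WT arrays, and hybridisation controls 12289 to 13692 on KO arrays and 15545 to 22774 on WT arrays. The 18S rRNA probes moved with treatment: 38701 and 31397 in KO cells with db-cAMP, against 24553 and 26853 with vehicle, and 37627 and 36892 in WT cells with db-cAMP, against 28574 and 25511 with vehicle. The part of these markers and controls in the results below was not tested. The sources used here do not state whether the KO and WT arrays were prepared or hybridised apart, so such a batch and the genotype cannot be told apart.

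The oxidative phosphorylation genes were among the brightest on the array. Of the 76 tested, 68 had a mean signal over 3000 and 47 of 10000 or over, with a median of 11894. The 6 with a mean under 1000 were Ndufb1, Cox7c and the tissue-restricted isoforms Cox4i2, Cox6a2, Cox6b2 and Cox8c. The 5 set aside as too dim were Ndufb4, Ndufa4l2, Cox7a1, Cox7b2 and Cox8b. Ndufb4 gave signals of 4.9 to 40.2, and 9 further sets that carry a matching symbol beside another symbol were not used, so a dim set here says little about a widely expressed subunit such as Ndufb4 or Cox7c. Because probes differ in how brightly they bind, no subunit gene's level is set against another's, and the marker sums above are only a coarse check.

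Differences are given on a log2(signal + 5.48) scale, so 1 unit is a doubling and changes of dim genes are understated. A gene was called higher or lower when limma's p-value, adjusted over all 12091 genes by the Benjamini-Hochberg method, was under 0.05. Between the 2 arrays of a group the 76 genes differed by a median of 0.06 to 0.09 on this scale, which shows how small a change could be resolved. Counts are on the values as deposited unless stated otherwise, and those over all 76 genes are given again after quantile normalization. That scaling gives all 8 arrays the same distribution of signals, and it parts ways with the deposited scaling for bright genes.

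**Figure D1:**
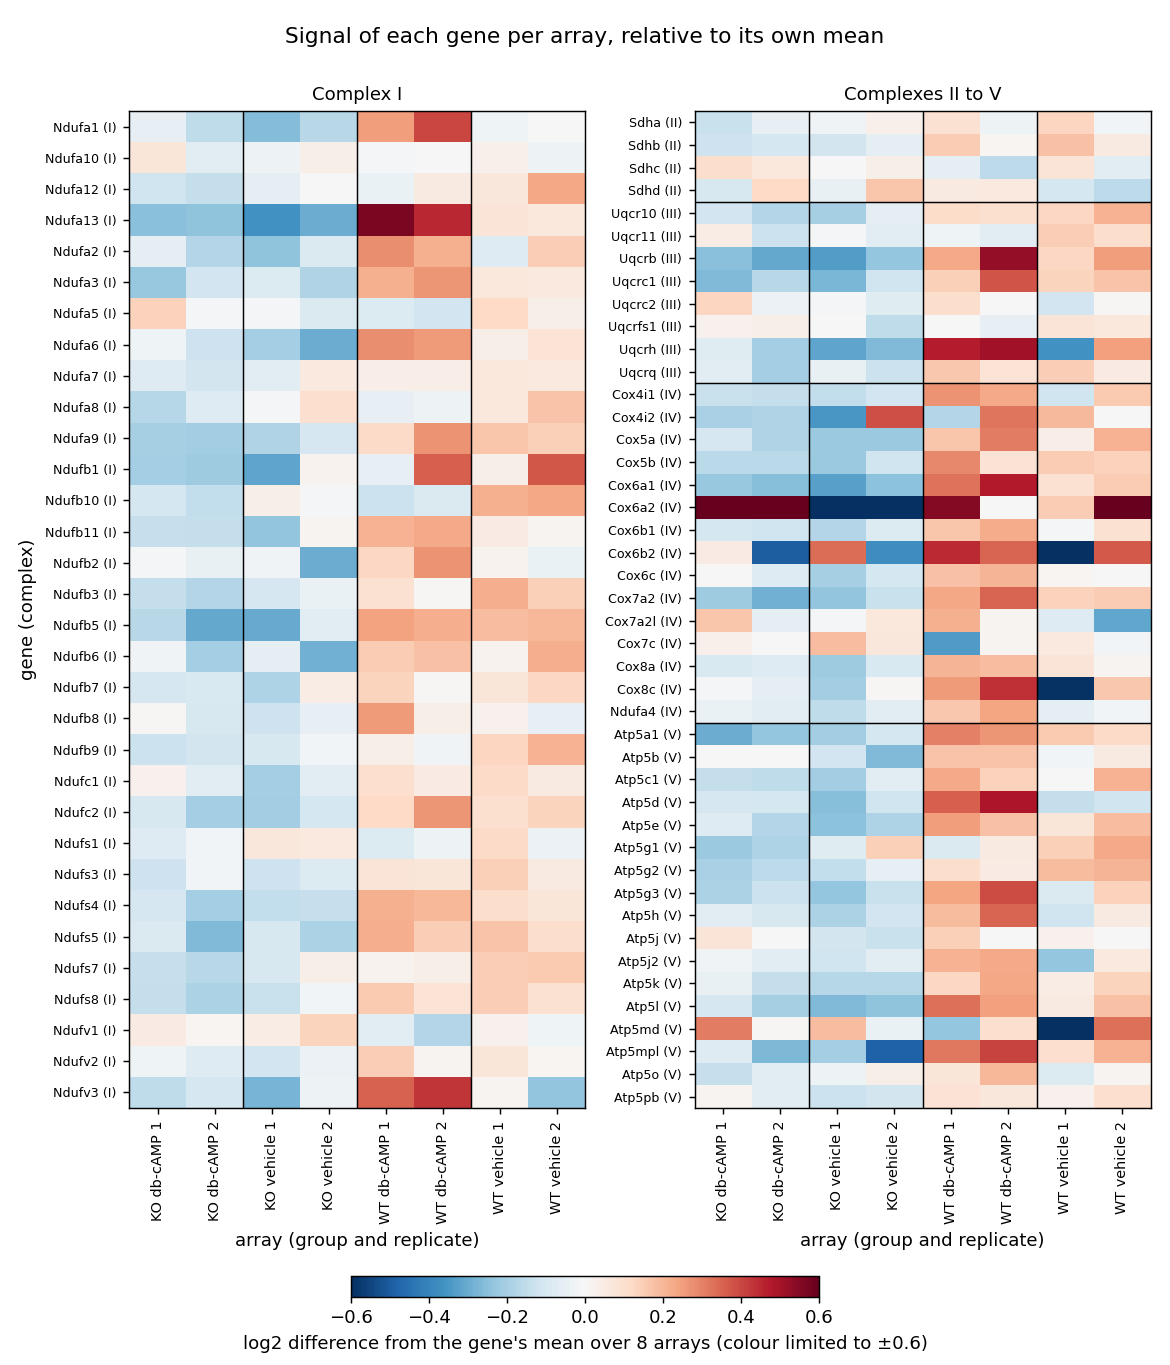
Signal of the 76 tested genes on each of the 8 arrays (columns) as the log2 difference from the gene's own mean over the arrays (colour, limited to ±0.6), with complex I on the left and complexes II to V on the right. The median gene lay 0.15 and 0.17 above its mean on the WT db-cAMP arrays and 0.08 to 0.15 below it on the KO arrays.

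In WT cells db-cAMP raised a small group of subunit genes, by at most 1.47-fold, and most did not pass the test. Of the 76 genes, 14 were called higher and 1 lower, against 16.4% of all tested genes called higher and 18.6% called lower. The median change of the 76 was 0.08, against 0.01 over all genes, and their median change in either direction was 0.15, against 0.40 over all genes. After quantile normalization 7 were called higher and 8 lower, where 15.6% of all genes were higher and 19.0% lower. The higher calls were 5 without WT vehicle replicate 1, 7 without WT db-cAMP replicate 2 and 3 in limma without the intensity trend. The 14 were spread over complex I (4 of 32), complex III (1 of 8), complex IV (5 of 15) and complex V (4 of 17), and 0 of the 4 complex II genes were called. The share called higher thus lay near that of all genes, and the share called lower under it. Each array measures the RNA of a whole culture, so a change in which cells are present and a change in RNA per cell cannot be told apart.

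Atp5d, the delta subunit in the central stalk of the F1 part of ATP synthase, changed with the smallest adjusted p of the family. Its signal was 25014 and 27322 in WT cells with db-cAMP, against 17688 and 17988 with vehicle. The WT groups did not overlap (log2 0.55 ± 0.07 SE, adjusted p = 3.98e-05, 1.47-fold), and a second probe set gave a log2 difference of 0.54 (adjusted p = 9.59e-05). The other F1 genes did not pass: Atp5a1 and Atp5b, which encode the alpha and beta subunits around the catalytic sites, each changed by 0.15, Atp5c1 (gamma) by 0.08 and Atp5e (epsilon) by 0.09.

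In complex I the called genes were accessory subunits, which surround the catalytic core. Ndufa13, also known as GRIM-19, gave 18483 and 17124 in WT cells with db-cAMP, against 13186 and 13049 with vehicle (log2 0.44 ± 0.07 SE, adjusted p = 0.000164). Ndufv3, a subunit at the NADH-binding end of the complex, gave 4974 and 5227 in WT cells with db-cAMP, against 3936 and 3293 with vehicle (log2 0.50 ± 0.10 SE, adjusted p = 0.00134). For both genes the lowest db-cAMP array lay above the highest vehicle array. That held for all 14 genes called higher and for 32.2% of all tested genes, so it adds nothing to a call. Ndufa1, a small membrane-arm subunit, gave 32211 and 35661 in WT cells with db-cAMP, against 26537 and 27108 with vehicle (log2 0.34 ± 0.07 SE, adjusted p = 0.00257), and Ndufa6, a subunit of the LYR protein family, 9097 and 8966 in WT cells with db-cAMP, against 7683 and 7934 with vehicle (log2 0.21 ± 0.07 SE, adjusted p = 0.0326). In both the WT groups were apart, but the change of Ndufa1 fell to 0.13 (adjusted p = 0.0602) after quantile normalization. Ndufb10, an accessory subunit of the membrane arm, was the 1 gene that fell: it gave 4168 and 4286 in WT cells with db-cAMP, against 5277 and 5352 with vehicle (log2 -0.33 ± 0.07 SE, adjusted p = 0.00205). Of the 26 tested accessory genes 4 were higher and 1 lower, and of the 6 tested core genes, which carry the flavin and the iron-sulphur clusters, 0 were called (0 at an unadjusted p under 0.05), with changes of -0.12 to 0.04. Another set for the core gene Ndufv1 (mean signal 4439) was called lower, at -0.24 (adjusted p = 0.047). Other sets of the uncalled accessory genes Ndufa12, Ndufa7 and Ndufb8 were called lower too, so these results depend on the set.

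In complex III the 1 gene called was Uqcrh, the hinge protein beside cytochrome c1. It gave 27913 and 28549 in WT cells with db-cAMP, against 15671 and 23870 with vehicle (log2 0.55 ± 0.14 SE, adjusted p = 0.00674). The vehicle arrays of this set stood far apart, and without the first of them the adjusted p was 0.0543. A second set for Uqcrh changed by 0.36 (adjusted p = 0.00138). The other 7 complex III genes changed by -0.18 (Uqcr11) to 0.19 (Uqcrb).

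Complex IV, cytochrome c oxidase, had 5 of 15 tested genes called higher. Cox6a1, the widely expressed form of subunit 6a, gave 50723 and 56286 in WT cells with db-cAMP, against 43117 and 44966 with vehicle (log2 0.28 ± 0.07 SE, adjusted p = 0.00765). Ndufa4 gave 20246 and 21289 in WT cells with db-cAMP, against 17403 and 17872 with vehicle (log2 0.24 ± 0.07 SE, adjusted p = 0.0131), and Cox7a2l 5301 and 4620 in WT cells with db-cAMP, against 4325 and 3683 with vehicle (log2 0.31 ± 0.10 SE, adjusted p = 0.0303). Cox4i1, the regulatory subunit 4, and Cox6c rose by 0.23 (adjusted p = 0.0454) and 0.19 (adjusted p = 0.0429). Cox7a2l was the 1 gene of these 5 still called after quantile normalization, at 0.32 (adjusted p = 0.0192), while Cox6a1 was at 0.05 (adjusted p = 0.481) and Cox6c at -0.02 (adjusted p = 0.831). The 2 other sets of Cox7a2l did not pass, at 0.21 (adjusted p = 0.173) and 0.15 (adjusted p = 0.352).

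Beside Atp5d, 3 genes of the ATP synthase outside F1 were called higher. Atp5h, a subunit of the peripheral stalk, gave 27985 and 31257 in WT cells with db-cAMP, against 22616 and 25480 with vehicle (log2 0.30 ± 0.08 SE, adjusted p = 0.00842), and Atp5j2, subunit f of the membrane part, 23697 and 23992 in WT cells with db-cAMP, against 17468 and 21321 with vehicle (log2 0.31 ± 0.08 SE, adjusted p = 0.0123). Atp5g3, 1 of the genes for the c subunit that forms the rotating ring, changed by 0.29 (adjusted p = 0.0162). In these genes the WT groups were apart. Taken as the mean of its probe sets Atp5j2 changed by -0.01, and its other bright set by 0.15 (adjusted p = 0.142), so its rise rests on 1 set.

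None of the 4 complex II genes passed the test with db-cAMP in WT cells (0 at an unadjusted p under 0.05). Sdha, the flavoprotein, gave 5642 and 5183 in WT cells with db-cAMP, against 5786 and 5230 with vehicle. Sdhb, the iron-sulphur subunit, gave 10416 and 9465 in WT cells with db-cAMP, against 10583 and 9743 with vehicle. For both, the treatment groups overlapped, as the log2 differences of -0.02 and -0.03 show. The membrane anchors Sdhc and Sdhd gave 2115 and 1977 in WT cells with db-cAMP, against 2326 and 2104 with vehicle, and 4025 and 4034 in WT cells with db-cAMP, against 3598 and 3476 with vehicle; their differences of -0.11 and 0.19 did not pass. Other probe sets differed from these: a dimmer set for Sdha (mean signal 2615) was called higher at 0.61 (adjusted p = 0.0035) and 1 for Sdhd (mean signal 1256) lower at -0.37 (adjusted p = 0.0409), so the result for these 2 genes depends on the set.

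The 7 genes called higher in WT cells under the deposited values, after quantile normalization and after cyclic loess were Atp5d, Atp5j2, Cox7a2l, Ndufa13, Ndufa6, Ndufv3 and Uqcrh, and Ndufb10 was called lower in all 3. Quantile normalization added 7 lower calls, among them Atp5g1, Atp5g2 and Uqcr11. Bright genes in general were a little higher with db-cAMP in WT arrays as deposited: for a mean signal of 10000 or over, the median change was 0.11 in the 47 oxidative phosphorylation genes and 0.11 in 396 other genes, and after quantile normalization -0.02 and -0.06. In the same class the median change in either direction was 0.15 in the oxidative phosphorylation genes and 0.23 in the others, and between 3000 and 10000 it was 0.13 in 21 genes and 0.32 in 1240 others. As deposited, 23.4% of the 47 were called higher and 0.0% lower, against 33.3% and 17.2% of the 396 others. Between 3000 and 10000 the shares were 14.3% higher and 4.76% lower, against 26.7% and 37.4%. Subunit genes were thus called higher less often than other genes of like brightness.

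**Figure D2:**
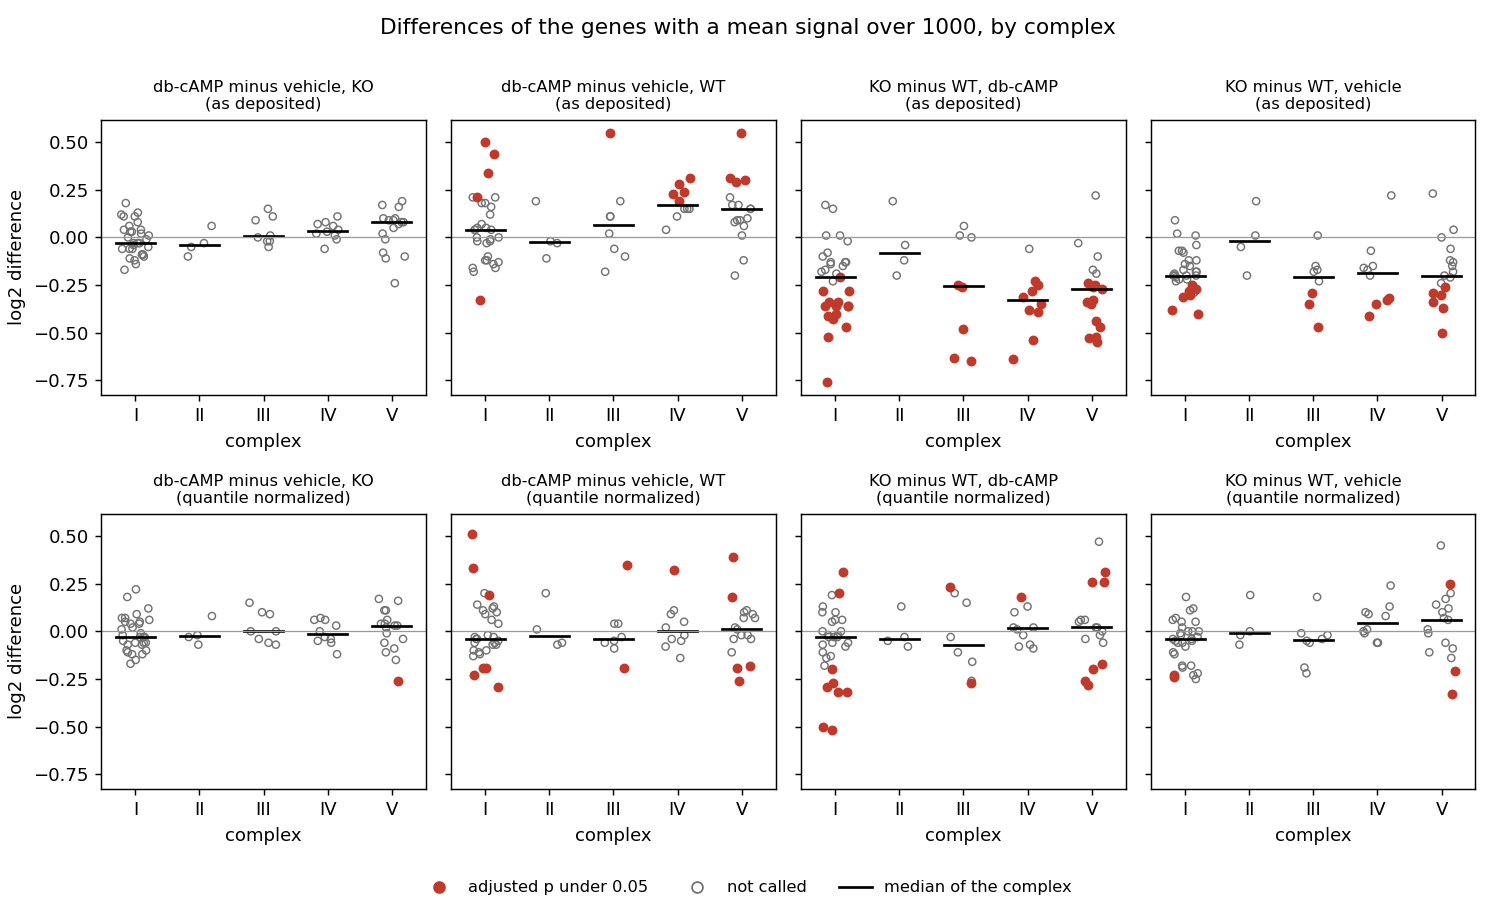
Log2 differences of the 70 genes with a mean signal over 1000, by complex (x axis), in 4 comparisons (columns), on the deposited values (upper row) and after quantile normalization (lower row); each point is a gene, filled where its adjusted p was under 0.05, and bars are medians. In the KO against WT comparisons the points lie mostly below 0 in the upper row and on both sides of it in the lower row.

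Cyclic AMP acts on transcription largely through CREB, which binds the palindrome TGACGTCA or its shorter form TGACG, so promoters were searched for these letters and for motifs of factors linked to mitochondrial genes. RefSeq promoters (build GRCm38.p6), 250 bases before to 50 after a start, were found for 66 of the 81 genes, 71 in all. The palindrome stood in 3 of the 71 (4.23%), against 1.79% of all 32851 promoters and 2.92% of those of tested genes, and the shorter form, which each palindrome also contains, in 38.0%, against 20.8% and 30.3%. GCATGCG, the core of the NRF1 motif, stood in 14.1%, against 3.58% and 6.19%, CCGGAAG, an ETS motif, in 23.9%, against 8.86% and 17.1%, AAGATGGC, a YY1 motif, in 12.7%, against 2.75% and 4.3%, and GGGCGGG, an Sp1 motif, in 35.2%, against 25.6% and 44.4%. Both strands were searched, and a match describes letters only.

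The 3 promoters with the palindrome are shown, of Ndufa10 (chr1:92473709-92474008, minus strand), Ndufb2 (chr6:39592315-39592614, plus strand) and Uqcrfs1 (chr13:30545267-30545566, minus strand). Their genes were not called with db-cAMP. Whether any motif has a part in the changes, or in their absence, was not tested here or for the promoters shown further below. Capitals mark any of the 6 motifs on either strand, and the palindrome starts at -67, -14 and -29 relative to the gene start.
Ndufa10: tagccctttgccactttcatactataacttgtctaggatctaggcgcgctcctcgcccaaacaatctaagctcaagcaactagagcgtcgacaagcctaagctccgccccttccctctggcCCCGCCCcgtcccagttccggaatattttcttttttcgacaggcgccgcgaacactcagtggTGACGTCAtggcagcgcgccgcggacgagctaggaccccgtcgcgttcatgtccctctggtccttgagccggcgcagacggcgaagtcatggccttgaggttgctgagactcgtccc
Ndufb2: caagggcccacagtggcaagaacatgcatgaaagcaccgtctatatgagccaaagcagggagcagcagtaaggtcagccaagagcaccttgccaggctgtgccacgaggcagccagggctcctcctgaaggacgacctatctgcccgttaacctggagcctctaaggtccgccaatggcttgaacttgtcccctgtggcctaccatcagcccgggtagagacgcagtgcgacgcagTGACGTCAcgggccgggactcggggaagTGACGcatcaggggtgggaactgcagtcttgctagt
Uqcrfs1: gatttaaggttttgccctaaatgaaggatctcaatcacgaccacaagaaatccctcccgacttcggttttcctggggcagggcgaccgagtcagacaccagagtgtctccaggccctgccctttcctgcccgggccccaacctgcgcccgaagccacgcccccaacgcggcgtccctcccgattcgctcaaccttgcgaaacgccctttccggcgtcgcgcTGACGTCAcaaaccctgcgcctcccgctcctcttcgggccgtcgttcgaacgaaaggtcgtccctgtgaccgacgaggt
Ndufa10 is an accessory subunit of complex I and gave 10670 and 10736 in WT cells with db-cAMP, against 10953 and 10504 with vehicle, a log2 difference of 0.00 with overlapping groups. Ndufb2, also accessory, gave 8254 and 9118 in WT cells with db-cAMP, against 7663 and 7347 with vehicle, and its difference of 0.21 did not pass (adjusted p = 0.0912). Uqcrfs1, the Rieske iron-sulphur protein of complex III, gave 8238 and 7975 in WT cells with db-cAMP, against 8703 and 8634 with vehicle, and its difference of -0.10 did not pass (adjusted p = 0.337).

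The 3 genes with the smallest adjusted p among those that rose have no palindrome in this window. Their promoters are shown for comparison: Atp5d (chr10:80142025-80142324, plus strand, the first of 2 listed starts), Ndufa13 (chr8:69901971-69902270, minus strand) and Ndufv3 (chr17:31519865-31520164, plus strand). Capitals mark the same 6 motifs, which Atp5d lacks; Ndufa13 has 1 TGACG and 2 Sp1 motifs, and Ndufv3 1 Sp1 motif.
Atp5d: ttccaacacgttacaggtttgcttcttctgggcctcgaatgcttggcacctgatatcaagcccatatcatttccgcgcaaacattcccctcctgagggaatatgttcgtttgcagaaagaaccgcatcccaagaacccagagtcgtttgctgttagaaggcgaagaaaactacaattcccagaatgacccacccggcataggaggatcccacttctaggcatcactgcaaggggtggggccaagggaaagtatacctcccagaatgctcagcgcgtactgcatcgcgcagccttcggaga
Ndufa13: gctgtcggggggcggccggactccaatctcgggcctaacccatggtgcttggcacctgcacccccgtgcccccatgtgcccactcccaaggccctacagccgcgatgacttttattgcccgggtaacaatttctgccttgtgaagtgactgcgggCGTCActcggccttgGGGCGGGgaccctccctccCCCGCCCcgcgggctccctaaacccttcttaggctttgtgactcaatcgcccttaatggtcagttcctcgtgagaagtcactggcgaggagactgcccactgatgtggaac
Ndufv3: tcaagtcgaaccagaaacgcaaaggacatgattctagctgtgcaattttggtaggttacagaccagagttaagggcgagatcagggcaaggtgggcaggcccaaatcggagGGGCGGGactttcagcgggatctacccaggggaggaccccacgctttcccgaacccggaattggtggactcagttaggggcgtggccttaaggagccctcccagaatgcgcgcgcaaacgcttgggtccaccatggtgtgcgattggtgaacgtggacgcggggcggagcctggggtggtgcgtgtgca

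In KO cells db-cAMP changed none of the 76 genes past the threshold of limma's test. The count was 0 higher and 0 lower, with 6 genes at an unadjusted p under 0.05, against 4.7% of all genes called higher and 3.68% lower. The median change was 0.01, and the median in either direction 0.07, against 0.21 over all genes. After quantile normalization 0 were higher and 1, Atp5g1, was lower at -0.26 (adjusted p = 0.0361), where 4.8% of all genes were higher and 4.16% lower. Cyclic loess gave 0 and 0. A second set for Cox6c (mean signal 19009) was called higher at 0.29 (adjusted p = 0.0259), beside 0.11 for the set used.

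The genes that rose in WT cells gave 18206 and 18175 in KO cells with db-cAMP, against 16348 and 17976 with vehicle, for Atp5d (log2 0.09 ± 0.07 SE, adjusted p = 0.587). Ndufa13 gave 10505 and 10573 in KO cells with db-cAMP, against 9707 and 10182 with vehicle (log2 0.08 ± 0.07 SE, adjusted p = 0.563). Ndufv3 gave 3497 and 3619 in KO cells with db-cAMP, against 3206 and 3800 with vehicle (log2 0.03 ± 0.10 SE, adjusted p = 0.927). The KO groups overlapped for Ndufv3 and lay close together for the other 2 genes. Ndufb10, which fell in WT cells, gave 4235 and 4117 in KO cells with db-cAMP, against 4667 and 4514 with vehicle, with the same direction but no call (log2 -0.14 ± 0.07 SE, adjusted p = 0.3).

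The difference between the db-cAMP effects, KO minus WT, was tested directly. It was called for 3 genes, all with a smaller rise in KO cells, against 6.7% of all genes called higher and 5.09% lower in this test. The count was 1 on leaving out KO db-cAMP replicate 1 or 2, KO vehicle replicate 2 or WT db-cAMP replicate 1, and 0 without the intensity trend. Atp5d differed by -0.47 ± 0.10 (SE, adjusted p = 0.00905), Ndufv3 by -0.47 ± 0.14 (adjusted p = 0.0454) and Ndufa13 by -0.36 ± 0.10 (adjusted p = 0.0277). After quantile normalization 1 gene, Atp5pb, was called higher and 2, Atp5d and Ndufv3, lower, with 6.02% and 4.86% of all genes, and Ndufa13 was at -0.27 (adjusted p = 0.0616). The median difference over the 76 genes was -0.07 as deposited and -0.01 after quantile normalization, and Uqcrh, whose rise in WT cells was as large as that of Atp5d, did not pass (log2 -0.40 ± 0.19 SE, adjusted p = 0.24).

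**Figure D3:**
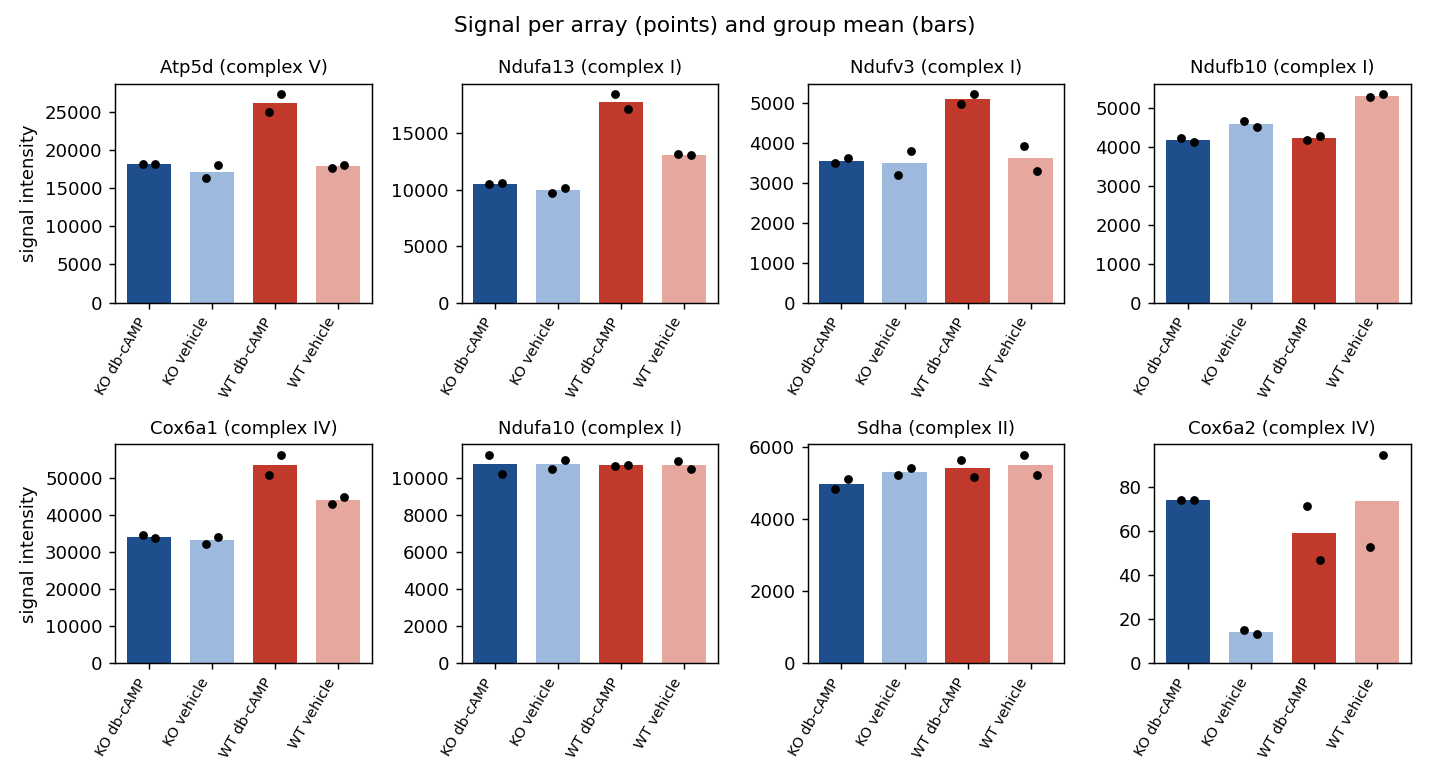
Signal intensity of 8 genes on each array (points) with the group mean (bars), KO groups left of WT groups and db-cAMP left of vehicle. Atp5d, Ndufa13 and Ndufv3 stand higher in WT db-cAMP than in the other 3 groups, Ndufb10 is highest in WT vehicle, Ndufa10 and Sdha are nearly level, and the dim isoform Cox6a2 is lowest in KO vehicle.

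Between genotypes, the deposited values were lower in KO cells for a large share of the genes, and 0 were called higher. Under vehicle 20 of 76 were lower, against 5.06% of all genes higher and 5.78% lower, and under db-cAMP 41 of 76 were lower, against 15.9% higher and 13.3% lower. The 20 became 4 without WT vehicle replicate 2, 5 without KO vehicle replicate 1, 13 without KO vehicle replicate 2 and 1 without the intensity trend, which left 17 of the 41. The medians were -0.19 and -0.26, against -0.01 and 0.00 over all genes. For 51 genes under vehicle both KO arrays lay below both WT arrays, against 26.6% of all genes, and under db-cAMP for 61 genes, against 3868 of all 12091. All 20 and all 41 called genes were among these, so groups that stand apart add nothing to a call. The 2 comparisons use different arrays and were each part of the same fit.

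This lower level was shared by other bright genes and depended on the scaling. Among genes with a mean signal of 10000 or over, the median KO minus WT difference under vehicle was -0.20 in the 47 oxidative phosphorylation genes and -0.26 in the 396 others, of which 31.9% and 52.0% were called lower. Under db-cAMP the medians were -0.31 and -0.29, with 72.3% and 62.4% called lower. After quantile normalization the medians of the oxidative phosphorylation genes in this class were -0.01 and 0.00, and those of the others -0.01 and 0.04. Between 3000 and 10000 the medians of the 21 oxidative phosphorylation genes were -0.17 under vehicle and -0.18 under db-cAMP, against -0.06 and 0.00 in 1240 others, and after quantile normalization -0.06 and -0.05, against -0.02 and 0.05. The polyA and hybridisation controls given above also separated KO from WT arrays, and their part in these differences was not tested.

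**Figure D4:**
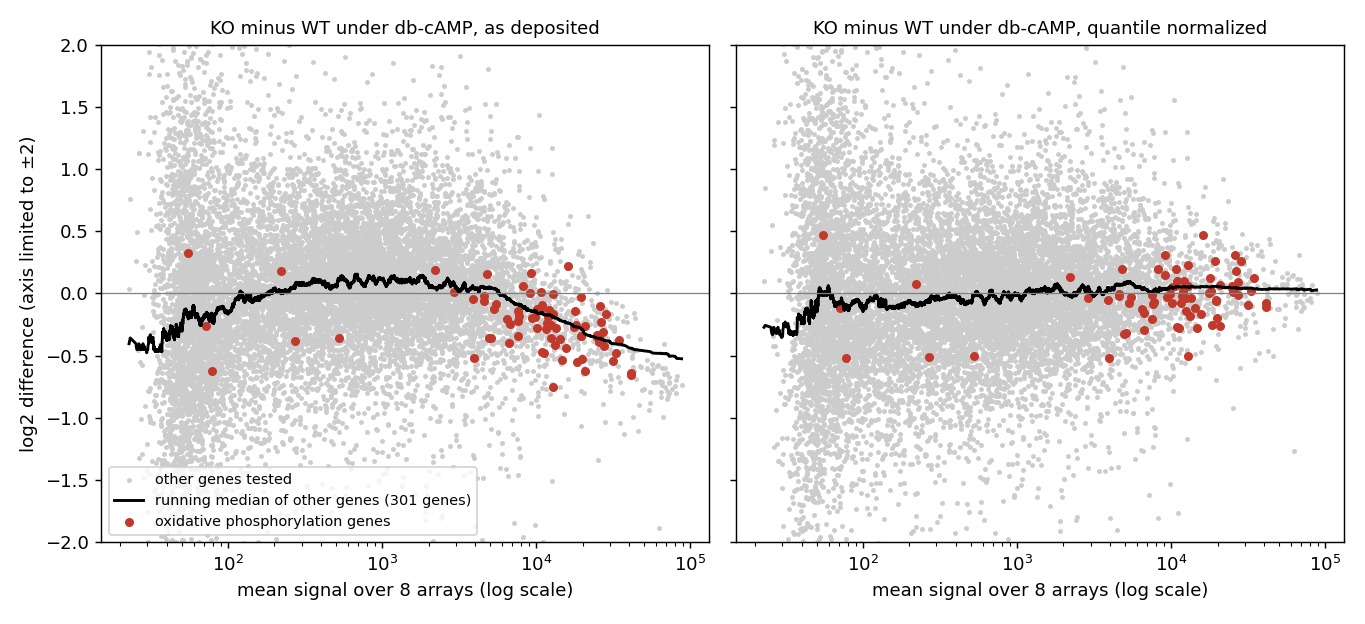
KO minus WT log2 difference under db-cAMP (y axis, limited to ±2) against the mean signal over 8 arrays (x axis, log scale) for all 12091 genes (grey), the oxidative phosphorylation genes (red) and a running median of the other genes (black line). On the deposited values (left) the line and the red points both sink at high signal, and after quantile normalization (right) both lie around 0.

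Over all 76 genes, quantile normalization left 1 higher and 4 lower under vehicle (4.01% and 4.2% of all genes) and 7 higher and 12 lower under db-cAMP (14.0% and 13.8%). Genes lower under the deposited values, quantile normalization and cyclic loess alike were 2 under vehicle (Atp5mpl and Ndufa13) and 12 under db-cAMP (Atp5a1, Atp5d, Atp5l, Atp5mpl, Ndufa13, Ndufa6, Ndufa9, Ndufb5, Ndufs4, Ndufs5, Ndufv3 and Uqcrc1). Of the 41 lower calls under db-cAMP 11 had the opposite sign after quantile normalization. By complex, that scaling left 2 lower in complex I, 0 in complex III and 2 lower beside 1 higher in complex V under vehicle. Under db-cAMP it left 7 lower and 2 higher in complex I, 1 and 1 in complex III, and 4 lower and 3 higher in complex V.

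Ndufa13 was the complex I gene with the smallest adjusted p under each treatment. It gave 9707 and 10182 in KO cells with vehicle, against 13186 and 13049 in WT cells with vehicle (log2 -0.40 ± 0.07 SE, adjusted p = 0.00193). Under db-cAMP Ndufa13 gave 10505 and 10573 in KO cells, against 18483 and 17124 in WT cells (log2 -0.76 ± 0.07 SE, adjusted p = 2.46e-06). The KO arrays lay below the WT arrays throughout, and after quantile normalization the differences were -0.24 (adjusted p = 0.0269) and -0.50 (adjusted p = 3.61e-05). Ndufv3 was level under vehicle, with 3206 and 3800 in KO cells with vehicle, against 3936 and 3293 in WT cells with vehicle, and lower under db-cAMP, with 3497 and 3619 in KO cells with db-cAMP, against 4974 and 5227 in WT cells with db-cAMP (log2 -0.52 ± 0.10 SE, adjusted p = 0.0014).

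In complex I, 7 of 32 genes were lower under vehicle and 15 under db-cAMP, of which 1 was a core gene (Ndufs8, log2 -0.28 ± 0.07 SE, adjusted p = 0.00724). Ndufa6 gave 6503 and 6099 in KO cells with vehicle, against 7683 and 7934 in WT cells with vehicle (log2 -0.31 ± 0.07 SE, adjusted p = 0.0122). Under db-cAMP Ndufa6 gave 7360 and 6888 in KO cells, against 9097 and 8966 in WT cells (log2 -0.34 ± 0.07 SE, adjusted p = 0.00216). Ndufb5, a membrane-arm accessory subunit, gave 8776 and 10324 in KO cells with vehicle, against 12299 and 12447 in WT cells with vehicle (log2 -0.38 ± 0.08 SE, adjusted p = 0.0103). Under db-cAMP Ndufb5 gave 9649 and 8744 in KO cells, against 12816 and 12584 in WT cells (log2 -0.47 ± 0.08 SE, adjusted p = 0.000763). Groups were apart in both genes. Ndufa3 and Ndufa1 were lower under db-cAMP, where Ndufa3 gave 11275 and 12185 in KO cells with db-cAMP, against 15300 and 15871 in WT cells with db-cAMP (log2 -0.41 ± 0.07 SE, adjusted p = 0.000535) and Ndufa1 26117 and 24355 in KO cells with db-cAMP, against 32211 and 35661 in WT cells with db-cAMP (log2 -0.43 ± 0.07 SE, adjusted p = 0.000615). After quantile normalization these stood at -0.18 (adjusted p = 0.0529) and -0.02 (adjusted p = 0.854). Ndufs4, an accessory subunit needed for a stable complex, was lower by both scalings under db-cAMP, at -0.36 and -0.32, as was Ndufs5 at -0.36 and -0.32. Dim other sets for Ndufs4 (mean signals 148.1, 655.6 and 182.0) were at 0.56, 0.27 and -0.06 with no call, so the Ndufs4 call rests on 1 set.

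Complex III had 3 of 8 genes lower under vehicle and 5 under db-cAMP. Uqcrb, which binds beside cytochrome b, gave 32027 and 34319 in KO cells with vehicle, against 43999 and 47966 in WT cells with vehicle (log2 -0.47 ± 0.09 SE, adjusted p = 0.00507). Under db-cAMP Uqcrb gave 33935 and 32648 in KO cells, against 47180 and 58115 in WT cells (log2 -0.65 ± 0.09 SE, adjusted p = 0.000123). Uqcrc1, a core protein on the matrix side, gave 9202 and 10254 in KO cells with vehicle, against 12236 and 12568 in WT cells with vehicle (log2 -0.35 ± 0.09 SE, adjusted p = 0.0189). Under db-cAMP Uqcrc1 gave 9268 and 9915 in KO cells, against 12316 and 14501 in WT cells (log2 -0.48 ± 0.09 SE, adjusted p = 0.000847). The other set for Uqcrb (mean signal 9794) did not pass, at -0.27 under vehicle (adjusted p = 0.0541) and -0.20 under db-cAMP (adjusted p = 0.0934), so its calls rest on 1 set. Uqcrb and Uqcrc1 had groups that were apart, but under db-cAMP after quantile normalization Uqcrb was at -0.11 (adjusted p = 0.108) and Uqcrc1 at -0.27 (adjusted p = 0.0195). Uqcr10, a small subunit, gave 5822 and 6435 in KO cells with vehicle, against 7278 and 7724 in WT cells with vehicle (log2 -0.29 ± 0.07 SE, adjusted p = 0.0223). Uqcrh gave 19119 and 17468 in KO cells with db-cAMP, against 27913 and 28549 in WT cells with db-cAMP (log2 -0.63 ± 0.14 SE, adjusted p = 0.00341), and 16170 and 16767 in KO cells with vehicle, against 15671 and 23870 in WT cells with vehicle with no call. The second set for Uqcrh was called lower under vehicle, at -0.40 (adjusted p = 0.002). Uqcrc2, the other core protein, differed by 0.01 and 0.00 and Uqcr11 by -0.17 and 0.01, with 0 calls.

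Complex IV had 4 of 15 genes lower under vehicle and 9 under db-cAMP. Cox6a1 gave 32254 and 34125 in KO cells with vehicle, against 43117 and 44966 in WT cells with vehicle (log2 -0.41 ± 0.07 SE, adjusted p = 0.00246). Under db-cAMP Cox6a1 gave 34520 and 33908 in KO cells, against 50723 and 56286 in WT cells (log2 -0.64 ± 0.07 SE, adjusted p = 1.75e-05). Cox7a2, the widely expressed form of subunit 7a, gave 26500 and 28467 in KO cells with vehicle, against 34376 and 34786 in WT cells with vehicle (log2 -0.33 ± 0.07 SE, adjusted p = 0.00859). Under db-cAMP Cox7a2 gave 26975 and 25625 in KO cells, against 36707 and 39854 in WT cells (log2 -0.54 ± 0.07 SE, adjusted p = 6.8e-05). Cox5a gave 29234 and 29186 in KO cells with vehicle, against 34984 and 39376 in WT cells with vehicle (log2 -0.35 ± 0.08 SE, adjusted p = 0.0113). Under db-cAMP Cox5a gave 31782 and 30101 in KO cells, against 38233 and 42189 in WT cells (log2 -0.38 ± 0.08 SE, adjusted p = 0.00217). All 3 genes had groups that were apart and lost their calls after quantile normalization, where Cox6a1 was at 0.00 and -0.07, Cox7a2 at -0.01 and -0.09 and Cox5a at 0.01 and 0.13. In that scaling 0 complex IV genes were lower under either treatment, and 1, Cox6c, was higher under db-cAMP at 0.18 (adjusted p = 0.0208). A second set for Cox6a1 (mean signal 12866) was at -0.11 (adjusted p = 0.381) under vehicle and -0.20 (adjusted p = 0.0472) under db-cAMP. Ndufa4 differed by -0.07 under vehicle, which did not pass, and by -0.25 under db-cAMP (adjusted p = 0.0112).

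In the ATP synthase 6 of 17 genes were lower under vehicle and 12 under db-cAMP, and of the 5 F1 genes 4 were lower under db-cAMP. Atp5a1 gave 14890 and 15556 in KO cells with db-cAMP, against 22542 and 21965 in WT cells with db-cAMP (log2 -0.55 ± 0.07 SE, adjusted p = 3.93e-05), and 15837 and 16997 in KO cells with vehicle, against 20406 and 19774 in WT cells with vehicle (log2 -0.29 ± 0.07 SE, adjusted p = 0.013). A second bright set for Atp5a1 differed by -0.05 (adjusted p = 0.668) under db-cAMP, so this call rests on 1 set. Atp5d gave 18206 and 18175 in KO cells with db-cAMP, against 25014 and 27322 in WT cells with db-cAMP (log2 -0.52 ± 0.07 SE, adjusted p = 0.000104), and its second set differed by -0.61, while under vehicle it gave 16348 and 17976 in KO cells with vehicle, against 17688 and 17988 in WT cells with vehicle with no call. Atp5b was not called at -0.20 and -0.17 on the deposited values, but was called higher under db-cAMP after quantile normalization. In that scaling Atp5a1 and Atp5d kept their lower calls under db-cAMP. Atp5c1 and Atp5e lost theirs, with Atp5c1 moving from -0.33 to 0.05. Atp5l, subunit g, where the dimers of the synthase meet, gave 12876 and 13075 in KO cells with vehicle, against 16034 and 17435 in WT cells with vehicle (log2 -0.37 ± 0.07 SE, adjusted p = 0.00497). Under db-cAMP Atp5l gave 14390 and 13434 in KO cells, against 19432 and 18331 in WT cells (log2 -0.44 ± 0.07 SE, adjusted p = 0.000371). Atp5mpl, a small membrane proteolipid, gave 12551 and 10323 in KO cells with vehicle, against 15458 and 16700 in WT cells with vehicle (log2 -0.50 ± 0.10 SE, adjusted p = 0.00465). Under db-cAMP Atp5mpl gave 13703 and 11975 in KO cells, against 17960 and 19136 in WT cells (log2 -0.53 ± 0.10 SE, adjusted p = 0.00084). Atp5e gave 16384 and 17091 in KO cells with vehicle, against 20432 and 22073 in WT cells with vehicle (log2 -0.34 ± 0.07 SE, adjusted p = 0.007). KO and WT arrays were apart in the last 3 genes, and after quantile normalization Atp5l and Atp5mpl kept both calls, whereas Atp5e under vehicle was at -0.11 (adjusted p = 0.25).

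Complex II again had 0 of 4 genes called under either treatment, with 1 gene at an unadjusted p under 0.05 under vehicle and 2 under db-cAMP. The dimmer Sdha set was called lower in KO cells under db-cAMP, at -0.55 (adjusted p = 0.00712). In KO cells Sdha gave 4829 and 5107 with db-cAMP and 5213 and 5411 with vehicle, and Sdhb 8606 and 8704 with db-cAMP and 8695 and 9019 with vehicle. Sdhb lay below the WT arrays in each case, with differences of -0.20 and -0.20, and Sdha overlapped under vehicle. Sdhc gave 2371 and 2301 with db-cAMP and 2210 and 2257 with vehicle, and Sdhd 3622 and 4212 with db-cAMP and 3751 and 4343 with vehicle. The KO minus WT differences of these anchors were 0.01 and 0.19 under vehicle and 0.19 and -0.04 under db-cAMP.

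Where a called gene had other probe sets, these mostly moved the same way. For KO against WT under db-cAMP, 26 called genes had 45 other sets, of which 37 had the same sign, 21 of those were called and 0 were called the opposite way. Under vehicle 17 of 20 other sets had the same sign and 5 were called, and for db-cAMP in WT cells 8 of 9 had the same sign and 4 were called, again with 0 called the opposite way. No other set was called for 9 of the 26 genes under db-cAMP, 7 of 11 under vehicle (Ndufb5, Uqcr10, Uqcrb and Cox6a1 among them) and 3 of 7 with db-cAMP in WT cells (Atp5j2, Cox6a1 and Cox7a2l). In the other direction, genes not called had 3 other sets called higher and 6 lower of 64 with db-cAMP in WT cells, 1 higher of 73 in KO cells, 8 lower of 53 for KO against WT under vehicle and 3 lower of 28 under db-cAMP. Sets of 1 gene share the arrays and the scaling, and 29, 11 and 4 of the 81 genes were measured by sets with the suffix _a_at, _s_at and _x_at, which mark probes shared by transcripts of a gene or by related sequences.

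Several complex IV subunits and the c subunit of ATP synthase come as paralogs, and the tissue-restricted forms were dim here. Cox4i2, the lung form of subunit 4, gave 60.7 and 61.4 in KO cells with db-cAMP, 54.0 and 93.5 in KO cells with vehicle, 61.6 and 89.3 in WT cells with db-cAMP and 81.1 and 70.2 in WT cells with vehicle. Cox4i1 gave 22943 and 22820 in KO cells with db-cAMP and 22696 and 23244 in KO cells with vehicle, and 30399 and 29518 in WT cells with db-cAMP, against 23196 and 28106 with vehicle, and was lower in KO cells under db-cAMP (log2 -0.39 ± 0.08 SE, adjusted p = 0.00285). Cox4i2 had no call in any comparison, and its 2 KO vehicle arrays were its lowest and its highest. Cox5b, the zinc-binding partner of Cox5a, gave 22603 and 22632 in KO cells with db-cAMP, 21674 and 23279 in KO cells with vehicle, 30952 and 26854 in WT cells with db-cAMP and 28136 and 27886 in WT cells with vehicle. It was lower in KO cells under vehicle and under db-cAMP on the deposited values, with differences of -0.32 and -0.35, and was not called with db-cAMP, at 0.04 in WT cells and 0.01 in KO cells. Another bright set for Cox5b (mean signal 23760) was called higher with db-cAMP in WT cells at 0.35 (adjusted p = 0.00144), with a called difference of effects of -0.34 (adjusted p = 0.042), while 2 further bright sets did not pass in WT cells, at 0.09 and 0.19.

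Cox6a2, the heart and muscle form, gave 74.2 and 74.3 in KO cells with db-cAMP, 15.0 and 13.5 in KO cells with vehicle, 71.6 and 47.0 in WT cells with db-cAMP and 53.0 and 94.8 in WT cells with vehicle. Both KO vehicle arrays stood well below the other 6 and below the median signal of their arrays, but no comparison passed: db-cAMP against vehicle in KO cells was at 2.02 ± 0.61 (adjusted p = 0.0635) and KO against WT under vehicle at -1.96 ± 0.61 (adjusted p = 0.0603). Cox6b1 gave 25153 and 24920 in KO cells with db-cAMP, 23973 and 25574 in KO cells with vehicle, 30359 and 31579 in WT cells with db-cAMP and 26950 and 28821 in WT cells with vehicle, with 1 call, lower in KO cells under db-cAMP (log2 -0.31 ± 0.07 SE, adjusted p = 0.00374). Cox6b2, the testis form, gave 77.8 and 51.5 in KO cells with db-cAMP, 95.8 and 56.6 in KO cells with vehicle, 104.3 and 96.8 in WT cells with db-cAMP and 44.6 and 98.3 in WT cells with vehicle. Its groups overlapped in all comparisons but KO against WT under db-cAMP, and it had 0 calls.

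Cox7a1, the muscle form of subunit 7a, was too dim to be tested and gave 21.7 and 17.0 in KO cells with db-cAMP, 8.0 and 43.6 in KO cells with vehicle, 50.3 and 3.8 in WT cells with db-cAMP and 14.2 and 30.8 in WT cells with vehicle. Cox8a gave 9482 and 9592 in KO cells with db-cAMP, 8711 and 9490 in KO cells with vehicle, 11638 and 11489 in WT cells with db-cAMP and 10657 and 10230 in WT cells with vehicle, and was lower in KO cells under db-cAMP (log2 -0.28 ± 0.07 SE, adjusted p = 0.0074). Cox8c, the testis form, gave 262.5 and 254.6 in KO cells with db-cAMP, 228.3 and 266.5 in KO cells with vehicle, 317.4 and 361.4 in WT cells with db-cAMP and 173.9 and 297.4 in WT cells with vehicle, with no call. Cox8b and Ndufa4l2, also not tested, ran from 4.9 to 42.7 and from 6.5 to 100.3, with arrays of 1 group far apart.

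Atp5g1, Atp5g2 and Atp5g3 encode the same mature c subunit with different import signals. Atp5g1 gave 10192 and 10466 in KO cells with db-cAMP, 11322 and 13159 in KO cells with vehicle, 11222 and 12342 in WT cells with db-cAMP and 13153 and 13946 in WT cells with vehicle. Atp5g2 gave 10604 and 10899 in KO cells with db-cAMP, 10986 and 11750 in KO cells with vehicle, 13078 and 12566 in WT cells with db-cAMP and 13886 and 13997 in WT cells with vehicle. Atp5g3 gave 28588 and 29871 in KO cells with db-cAMP, 27817 and 29717 in KO cells with vehicle, 38507 and 42840 in WT cells with db-cAMP and 30714 and 35900 in WT cells with vehicle. With db-cAMP in WT cells they moved by -0.20, -0.12 and 0.29, of which the last passed on the deposited values. After quantile normalization Atp5g1 was at -0.26 (adjusted p = 0.00904), Atp5g2 at -0.19 (adjusted p = 0.0163) and Atp5g3 at 0.07 (adjusted p = 0.356), so the first 2 were called lower and the third was not called.

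Genes that build and serve the complexes were followed as separate lists. Of 43 tested assembly factors, 21 fell and 1 (Uqcc3) rose with db-cAMP in WT cells, with a median of -0.33, against 18.6% of all genes lower and 16.4% higher, and after quantile normalization 19 fell and 1 rose, with a median of -0.33. In KO cells 4 fell and 0 rose by either scaling, against 3.68% and 4.7% of all genes as deposited, with a median of -0.16. The effect differed between the genotypes for 7 assembly factors, against 6.7% of all genes called in that direction, and for 5 after quantile normalization. Under db-cAMP 12 were higher and 3 lower in KO cells, against 15.9% and 13.3% of all genes, and 9 and 2 after quantile normalization. These lists were described by their counts, and the subunits and assembly factors were not tested against each other.

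Sco2, a copper chaperone for complex IV, had the smallest adjusted p of the list: it gave 688.8 and 654.7 in WT cells with db-cAMP, against 1908 and 2014 with vehicle (log2 -1.54 ± 0.10 SE, adjusted p = 4.58e-08). In KO cells Sco2 gave 1219 and 1261 with db-cAMP, against 1523 and 1680 with vehicle (log2 -0.37 ± 0.10 SE, adjusted p = 0.0343). Ndufaf4, an assembly factor of complex I, gave 1570 and 2204 in WT cells with db-cAMP, against 4747 and 4876 with vehicle (log2 -1.37 ± 0.12 SE, adjusted p = 1.06e-06). In KO cells Ndufaf4 gave 3488 and 3509 with db-cAMP, against 5029 and 4819 with vehicle (log2 -0.49 ± 0.12 SE, adjusted p = 0.0221). Both fell in each genotype, with groups apart, and the fall was smaller in KO cells by 1.17 (adjusted p = 0.000141) and 0.88 (adjusted p = 0.00436). Tmem70, needed to assemble ATP synthase, fell by 0.78 in WT cells and by 0.29 in KO cells, with adjusted p = 2.42e-06 and 0.0301. Sdhaf1, which helps mature the iron-sulphur subunit of complex II, fell by 0.88 in WT cells (adjusted p = 3.83e-06) and was at -0.20 in KO cells (adjusted p = 0.235).

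**Figure D5:**
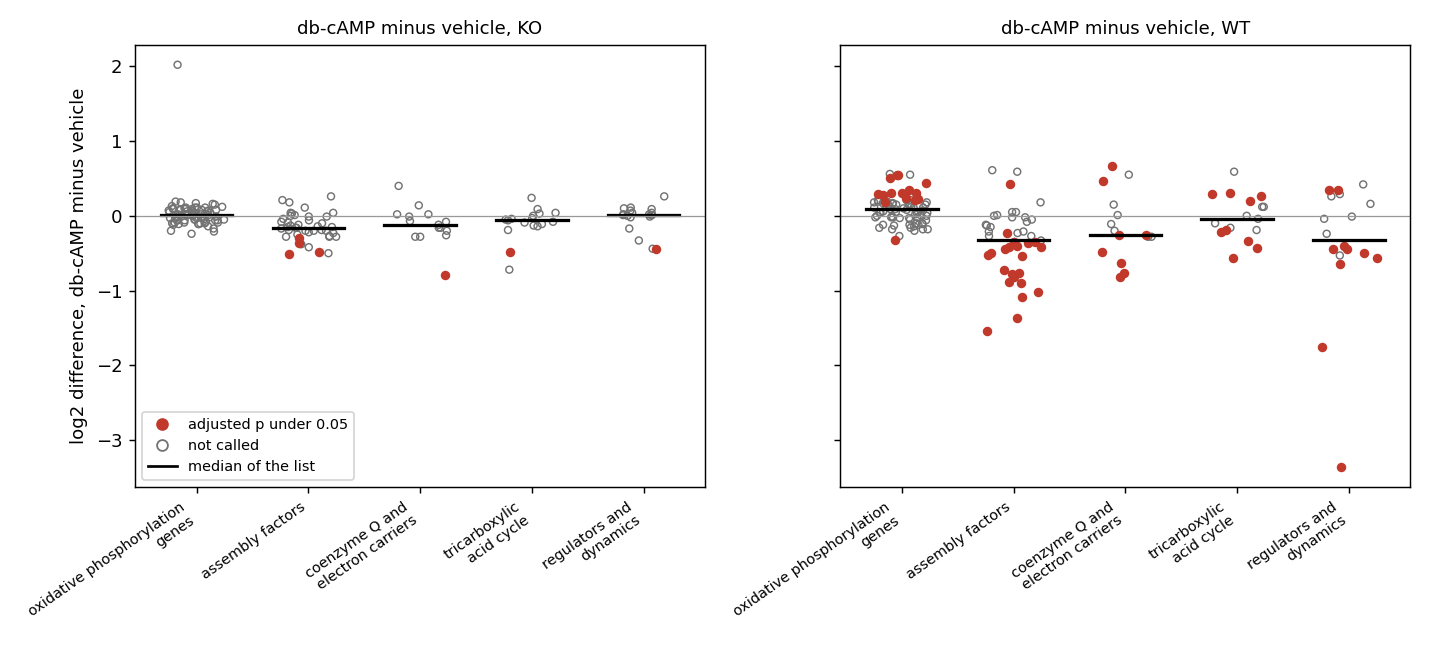
Log2 difference, db-cAMP minus vehicle, of the oxidative phosphorylation genes, assembly factors, coenzyme Q and electron carrier genes, tricarboxylic acid cycle genes, and a list of nuclear regulators that also holds genes of mitochondrial dynamics and Atpif1, in KO cells (left) and WT cells (right); each point is a gene, filled where its adjusted p was under 0.05, and bars are medians. The tricarboxylic acid cycle list also holds the pyruvate enzyme genes Pdha1, Pdhb, Dlat and Pcx, and the carrier list Cyc1. In WT cells the median of the assembly factors lies at -0.33 and that of the oxidative phosphorylation genes at 0.08. The lowest point in WT cells is Ppargc1b, whose db-cAMP signals lay under the array medians, so its drawn size is not exact.

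A further list of 18 tested genes held 13 regulators of mitochondrial gene expression, the fusion and fission genes Opa1, Mfn1, Mfn2 and Dnm1l, and Atpif1, which encodes an inhibitor of ATP synthase. Of the 13 regulators, 1 (Yy1) rose and 7 fell with db-cAMP in WT cells by either scaling, with a median of -0.44, against 16.4% of all genes higher and 18.6% lower. In KO cells 0 of the 13 rose and 1 fell, against 4.7% and 3.68% of all genes. Of the other 5, Atpif1 rose and Opa1 fell in WT cells as deposited. Pprc1, a coactivator of the PGC-1 family, gave 668.5 and 788.0 in WT cells with db-cAMP, against 2385 and 2566 with vehicle (log2 -1.76 ± 0.11 SE, adjusted p = 3.51e-08). In KO cells Pprc1 gave 1915 and 1916 with db-cAMP, against 2844 and 2398 with vehicle (log2 -0.45 ± 0.11 SE, adjusted p = 0.0216). Ppargc1b, which encodes PGC-1 beta, gave 20.5 and 16.6 in WT cells with db-cAMP, against 245.9 and 233.8 with vehicle. The db-cAMP signals lay under their arrays' medians of 64.6 and 70.5, so only a bound is given: against those medians Ppargc1b was at least 3.36-fold lower with db-cAMP in WT cells (adjusted p = 1.32e-06). In KO cells Ppargc1b gave 183.9 and 249.0 with db-cAMP, against 264.2 and 325.3 with vehicle (log2 -0.44 ± 0.30 SE, adjusted p = 0.469). The WT groups of both were far apart. Tfam and Tfb2m, which act on mitochondrial DNA transcription, fell by 0.41 (adjusted p = 0.00058) and 0.65 (adjusted p = 0.000629) in WT cells and were at 0.02 and -0.02 in KO cells. The effect differed between genotypes for 5 regulators, Pprc1, Ppargc1b, Tfam, Tfb2m and Gabpb2, against 6.7% of all genes called in the same direction. After quantile normalization it also differed for 5, against 6.02%. All 5 fell in WT cells. In KO cells Pprc1 fell by less, Ppargc1b was not called, and Tfam, Tfb2m and Gabpb2 were at 0.02, -0.02 and 0.01. For Ppargc1b the size of the difference between genotypes is likewise only bounded.

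Of 15 coenzyme Q and electron carrier genes, 2 rose and 6 fell with db-cAMP in WT cells. Of 17 genes listed with the tricarboxylic acid cycle, 4 rose and 5 fell. Both are read against the same 16.4% and 18.6% of all genes. After quantile normalization the counts were 2 and 5, and 4 and 4. The first list holds Cyc1, a complex III subunit that the symbol rule misses. The second also holds Pdha1, Pdhb, Dlat and Pcx, genes of pyruvate enzymes outside the cycle, and Pdhb was 1 of the 4 that rose. Etfdh, which passes electrons from fatty acid oxidation to coenzyme Q, rose by 0.67 (adjusted p = 0.000132), and Coq2, an enzyme of coenzyme Q synthesis, fell by 0.63 (adjusted p = 0.00016). In the cycle, Suclg1 fell by 0.43 (adjusted p = 0.00322) and Cs, citrate synthase, rose by 0.27 (adjusted p = 0.0139). In KO cells 1 gene of each list fell, Pdss2 and Idh2, against 3.68% of all genes lower. Of 6 tested carriers of adenine nucleotides and phosphate, 3 rose with db-cAMP in WT cells (2 after quantile normalization), Slc25a4 with the smallest adjusted p: this adenine nucleotide translocase gave 14970 and 14776 in WT cells with db-cAMP, against 11852 and 10610 with vehicle (log2 0.41 ± 0.07 SE, adjusted p = 0.000536). In KO cells Slc25a4 gave 10347 and 10312 with db-cAMP, against 9971 and 10579 with vehicle (log2 0.01 ± 0.07 SE, adjusted p = 0.974). Under db-cAMP 6 of the 6 were lower in KO cells, against 13.3% of all genes. Among genes outside the oxidative phosphorylation set with a mean signal of 10000 or over, 62.4% were lower, so bright genes shared this. After quantile normalization 5 were lower, against 13.8% of all genes and 17.9% of those bright genes.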

How the data were processed

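The deposited values are linear signal intensities per probe set, made by the authors with MAS5 per the submitters' processing notes, of which no version or setting is stated there. Per the labels' protocols, cRNA was biotinylated with a 3' IVT kit. The trimmed mean was 500 on every array. Of 45101 probe sets, 34945 had 1 gene symbol, 932 several and 9160 none; the RefSeq names used are of GRCm38.p6. Signals were transformed as log2(signal + 5.48), the offset being the 10th percentile of all values, and genes above their array's median on at least 2 arrays were tested with limma 3.58.1 in R 4.3.3 (lmFit and eBayes with an intensity trend, 1 term per group, 4 residual and 9 prior degrees of freedom), with Benjamini-Hochberg adjustment over 12091 genes. The adjusted p-values of genes all come from limma. Group errors are standard errors of the fit. The fit was tested on simulated data. Alternatives included 3 other scalings, other offsets, filters and probe set choices, the replicate number as a block, and leaving out each array. The number of arrays, not depth, limits the precision. Replicates correlated at 0.961 to 0.977. Figures were drawn with matplotlib 3.10.9 in Python 3.11.15.

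The members and gene lists were chosen with earlier results of these data known. Signals of all arrays are given, in each complex and comparison, for up to 3 called genes with the smallest adjusted p in each direction, for complex II and for the paralog families; other members may be named with values. From other lists up to 4 called genes are named, and single genes beyond that (Uqcc3, Gabpb2, Yy1, Atpif1, Pdss2, Idh2, Opa1, Cs and Pdhb) were chosen after their values were seen.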

Additional observations from a re-analysis of the deposited data

Results flagged for a closer look

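For 3 genes the effect of db-cAMP differed between KO and WT cells in limma's test of the difference itself. The KO effect minus the WT effect was -0.47 for Atp5d (adjusted p = 0.00905), -0.36 for Ndufa13 (adjusted p = 0.0277) and -0.47 for Ndufv3 (adjusted p = 0.0454), on the log2 scale. In each, both db-cAMP arrays of WT cells stood above the other 6 arrays. Over the alternatives run, the adjusted p ranged up to 0.133 for Atp5d, 0.179 for Ndufa13 and 0.243 for Ndufv3, and the call was lost under 1 of 20 alternatives for Atp5d, 8 for Ndufa13 and 11 for Ndufv3. Groups held 2 arrays and were too small for a search for outlying arrays.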

How the results depend on the processing

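Scaling and the intensity trend both moved the counts. Quantile normalization gave 7 higher and 8 lower (median -0.03) for db-cAMP in WT cells, 0 and 1 (median -0.02) in KO cells, 1 and 4 (median -0.02) for KO against WT under vehicle, 7 and 12 (median -0.03) under db-cAMP, and 1 and 2 (median -0.01) for the difference of effects. Cyclic loess, added after seeing the data, gave 12 higher and 3 lower (median 0.05) for db-cAMP in WT cells, 0 and 2 (median -0.02) for KO against WT under vehicle, 3 and 18 (median -0.07) under db-cAMP, and 0 and 3 for the difference of effects. Equal 75th percentiles gave medians of -0.04 for db-cAMP in KO cells, -0.28 with 43 lower for KO against WT under vehicle, -0.38 under db-cAMP and -0.10 for the difference of effects. Without the intensity trend 3 genes rose with db-cAMP in WT cells, 1 and 17 were lower in KO cells under vehicle and db-cAMP, and 0 effects differed. The mean of a gene's probe sets gave 3 lower with db-cAMP in WT cells and medians of -0.23 for KO against WT under db-cAMP and -0.04 for the difference of effects. In single genes, the sign turned for Atp5j2 with db-cAMP in WT cells (-0.01, mean of probe sets). Under quantile normalization it turned for Cox6c (-0.02) with db-cAMP in WT cells, for Cox6a1 (0.00) and Cox5a (0.01) for KO against WT under vehicle, and for 11 genes under db-cAMP, of which Cox6c (0.18), Cox5a (0.13) and Cox6b1 (0.10) moved farthest. The cause of these shifts was not tested.

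Leaving out 1 array at a time, higher calls with db-cAMP in WT cells ran from 5 (without WT vehicle replicate 1) to 15, lower calls from 1 to 2 and the median from 0.05 to 0.12. With db-cAMP in KO cells lower calls ran from 0 to 1 and the median from -0.02 to 0.06. For KO against WT under vehicle, higher calls ran from 0 to 1, lower calls from 4 (without WT vehicle replicate 2; 5 without KO vehicle replicate 1) to 21 and the median from -0.22 to -0.17. Under db-cAMP lower calls ran from 28 to 42. For the difference of effects lower calls ran from 1 to 4 and the median from -0.11 to -0.03. With the replicate block, 14 genes were higher and 2 lower with db-cAMP in WT cells. Replicate differences correlated between groups at -0.02 to 0.02. Each rests on 1 pair of arrays per group, so they cannot show whether arrays with the same replicate number share a source. A fit on only the arrays compared could not be made for the difference of effects, which needs all 4 groups.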
